A study of Mus musculus with 9 samples.

Results

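The 7 genes described here encode the latent TGF-beta binding proteins (Ltbp1, Ltbp2, Ltbp3 and Ltbp4) and the integrin subunits Itgav, Itgb5 and Itgb8. All except Ltbp2 encode proteins that store latent TGF-beta in the matrix, or integrin subunits that release it. The 7 genes were chosen by gene name, with earlier results of these data known, and each had a row among the 35024 gene rows of the deposited table. All 7 lay above the lowest value in every library and passed the filter on low values.

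Expression had been measured by bulk RNA sequencing in hepatic stellate cells, liver pericytes that hold vitamin A, sorted by flow cytometry on the autofluorescence of their retinoids. The YAP-deleted group (4 libraries, LYT006, LYT008, LYT013 and LYT016) came from mice carrying LratCre and floxed Yap1, so that Cre was driven by the promoter of Lrat, the retinol-esterifying enzyme of stellate cells. The control group (5 libraries, LYT004, LYT005, LYT014, LYT015 and LYT017) came from mice with floxed Yap1 and no LratCre. All were on a C57BL/6J background and had received the hepatotoxin carbon tetrachloride (CCl4) 6 times, every 3 days, with the cells taken 2 days after the last dose. Every library is therefore from injured liver, no uninjured liver is among them, and an effect of Cre itself cannot be told apart from loss of Yap1. The labels give neither the age of the mice nor whether each library was a separate mouse, so p-values measure the spread between libraries, part of which may be technical.

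TGF-beta is secreted in an inactive form, bound to its own propeptide, the latency-associated peptide. LTBP1, LTBP3 and LTBP4 attach to this peptide through a disulfide bond and tether the complex to fibrillin and fibronectin fibres, whereas LTBP2 binds fibrillin but not latent TGF-beta. Integrins made of the alpha v subunit with a beta subunit grip a short RGD motif in the latency-associated peptide and free the cytokine, which drives collagen production by stellate cells in the injured liver.

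Yap1, the targeted gene, was used to check the labels. It had 642, 648 and 645 normalised counts (counts recovered from the deposited values and scaled between libraries) in the YAP-deleted libraries LYT006, LYT008 and LYT016, against 2902, 2915, 3653 and 3551 in the control libraries LYT004, LYT005, LYT015 and LYT017. The library labelled YAP-deleted LYT013 had 2530, and the library labelled control LYT014 had 618. Both went against their labels. Results are therefore given for 9 libraries as labelled and for the 7 libraries without LYT013 and LYT014, and these 2 are shown apart with open symbols, a choice that rests on their Yap1 level. Total counts ran from 14575281 to 31816055 in the YAP-deleted libraries and from 14052502 to 22888193 in the control libraries, with 16282 to 17341 genes detected per library. All 12 stellate cell markers were detected, none with a mean under 100 normalised counts, and their sum ran from 761443 to 1069431 in the YAP-deleted libraries and from 638050 to 987408 in the control libraries. Summed over their lists, markers of macrophages and Kupffer cells reached 1022 to 2484 in the YAP-deleted libraries and 711 to 1894 in the control libraries, and 8 of these 12 had a mean under 100. Those of liver endothelial cells, 3 of 10 under 100, summed to 2295 to 4937 in the YAP-deleted libraries and 1531 to 4582 in the control libraries.

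**Figure D1:**
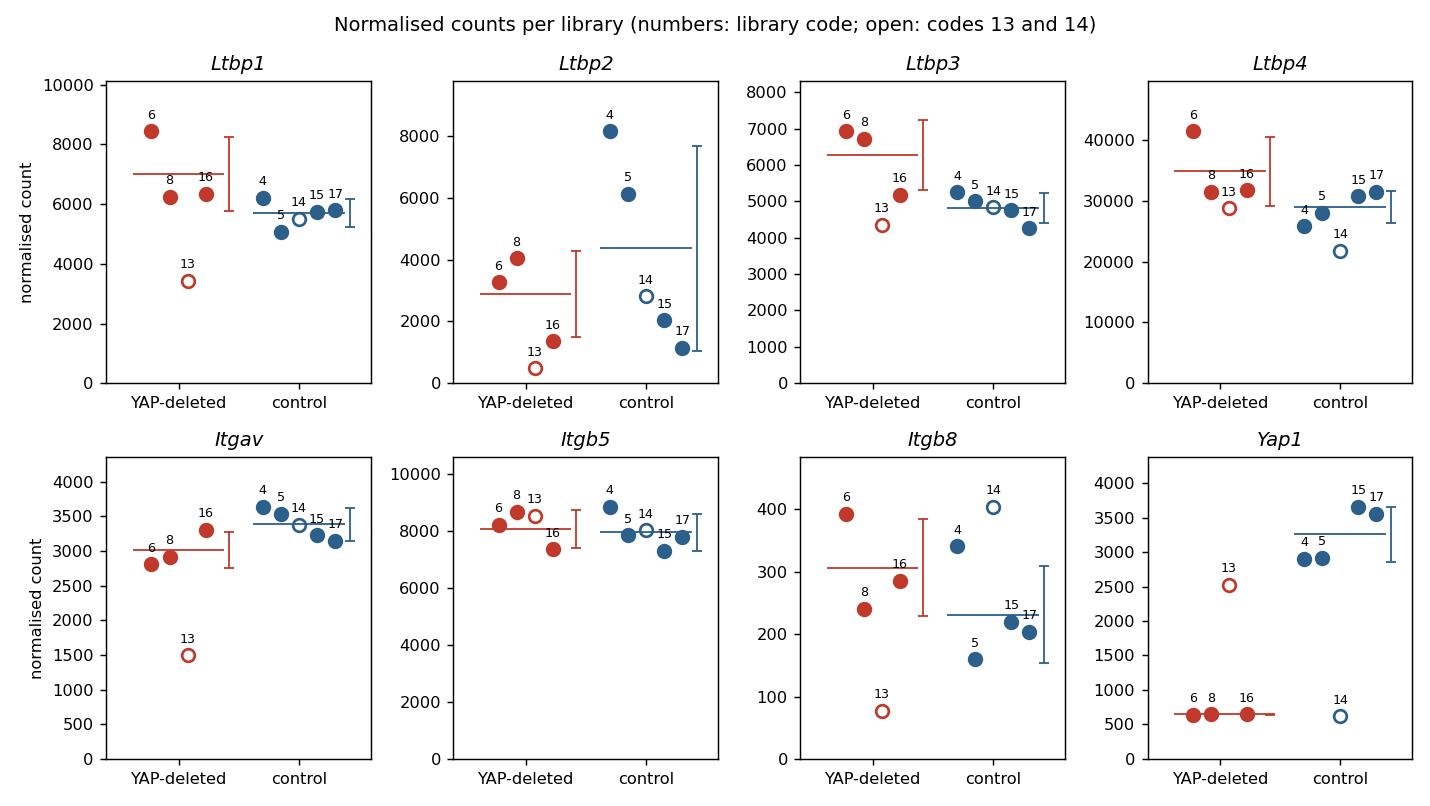
Normalised counts (y axis, linear from 0) of the 7 genes and Yap1 in each library, YAP-deleted left and control right, with library codes as numbers. Open symbols are LYT013 and LYT014. Horizontal lines and bars are the mean and SD of the 3 YAP-deleted and 4 control libraries without them. For Yap1 both open symbols sit at the level of the opposite group, and for Ltbp1, Ltbp2, Itgav and Itgb8 LYT013 is the lowest library of all.

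Ltbp1, Ltbp2 and Ltbp3 are the genes on which the group comparison and the spread below turn, so their promoters are shown, as RefSeq gives them for GRCm38.p6 (250 bases before to 50 after the annotated start, read 5′ to 3′ on the strand of the gene). Ltbp1 has 2 starts, 173.3 kb apart, from which a longer and a shorter protein begin. The 3 motifs searched on both strands were GGAATG, the core of sites bound by TEAD, the DNA-binding partner of YAP, TGANTCA, the AP-1 site, and CAGAC, a SMAD box, the motif of the TGF-beta signal transducers. Capitals mark TGANTCA and CAGAC matches on either strand (CAGAC reads GTCTG on the other strand). The windows lie at chr17:75005279-75005578 (+) and chr17:75178531-75178830 (+) for Ltbp1, chr12:84876442-84876741 (-) for Ltbp2 and chr19:5740650-5740949 (+) for Ltbp3.
Ltbp1, upstream start: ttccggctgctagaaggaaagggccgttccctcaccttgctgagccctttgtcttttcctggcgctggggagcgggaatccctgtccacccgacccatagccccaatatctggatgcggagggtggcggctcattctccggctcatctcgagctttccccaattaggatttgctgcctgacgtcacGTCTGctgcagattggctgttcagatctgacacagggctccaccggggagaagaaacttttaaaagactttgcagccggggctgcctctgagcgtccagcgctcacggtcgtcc
Ltbp1, downstream start: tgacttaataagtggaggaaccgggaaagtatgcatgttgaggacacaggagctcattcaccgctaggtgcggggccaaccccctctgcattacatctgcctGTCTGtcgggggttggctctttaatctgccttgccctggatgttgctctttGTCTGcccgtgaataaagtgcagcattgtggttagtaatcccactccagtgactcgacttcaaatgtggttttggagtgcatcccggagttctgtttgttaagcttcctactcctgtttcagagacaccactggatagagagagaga
Ltbp2: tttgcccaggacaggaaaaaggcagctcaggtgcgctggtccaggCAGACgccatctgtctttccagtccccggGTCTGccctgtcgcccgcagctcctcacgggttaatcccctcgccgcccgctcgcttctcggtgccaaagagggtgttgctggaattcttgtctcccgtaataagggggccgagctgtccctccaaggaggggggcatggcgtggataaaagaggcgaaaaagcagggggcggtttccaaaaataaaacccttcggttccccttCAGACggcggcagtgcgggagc
Ltbp3: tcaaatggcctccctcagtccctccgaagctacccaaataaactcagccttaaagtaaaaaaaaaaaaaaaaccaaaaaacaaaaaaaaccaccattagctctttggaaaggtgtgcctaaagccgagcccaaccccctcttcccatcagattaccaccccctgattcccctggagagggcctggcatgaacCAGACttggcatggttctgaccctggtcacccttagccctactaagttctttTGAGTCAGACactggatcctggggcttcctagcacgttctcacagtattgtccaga

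GGAATG was in 0 of the 10 promoter windows that RefSeq lists for the 7 genes, against 14.7% of 32851 mouse promoters of the same length. TGANTCA was in 1 window, that of Ltbp3, where its first letter lies 6 bases before the start, against 7.81% of all promoters. The Ltbp3 match shares 2 letters with a SMAD box. The motif CAGAC was in 5 of the 10 windows, against 49.6% of all promoters. The windows are not all separate, since some of those of Ltbp4 share most of their bases. Of the 7 genes, 4 had CAGAC (Ltbp1, Ltbp2, Ltbp3 and Itgb8), against 53.2% of 27025 genes, with 3 copies for Ltbp2. These matches describe letters in a short window and are no evidence of binding.

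Among the 7 genes, Ltbp4 and Itgb5 were the most abundant and Itgb8 by far the scarcest. Divided by the length of the longest GENCODE transcript, the mean over 9 libraries was 5596 ± 994 normalised counts per kilobase for Ltbp4 and 2456 ± 166 for Itgb5 (SD, n = 9). Ltbp3 followed with 917 ± 166 and Ltbp1 with 879 ± 197, then Ltbp2 with 483 ± 370 and Itgav with 432 ± 90.8. Itgb8 had 30.7 ± 12.9. Ltbp4 stood above Itgb5, Itgb5 above Ltbp3, and Itgav above Itgb8 in every library, with ranges over the libraries that did not overlap, whereas the ranges of Ltbp3 and Ltbp1, of Ltbp1 and Ltbp2, and of Ltbp2 and Itgav overlapped.

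Set among all 17110 tested genes with a known length, Ltbp4 lay at the 99.0th percentile of level per kilobase, Itgb5 at the 97.7th and Itgb8 at the 39.9th. The order depends on the length used for 2 genes. With the median length of the coding transcripts in place of the longest, Itgav had 4431 and Ltbp3 3788 normalised counts per kilobase, both above Itgb5 at 2638, because many of their annotated transcripts are short. Ltbp4, at 6124, remained first and Itgb8, at 30.7, last.

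Ltbp4, which binds latent TGF-beta more weakly than LTBP1 and LTBP3 and organises elastic fibres, was the most abundant LTBP in every library, and how large its share was depended on the length used. With the longest transcript as length, its share of the summed level per kilobase of the 4 LTBPs was 72.2%, 68.4% and 74.1% in the YAP-deleted libraries LYT006, LYT008 and LYT016, against 61.1%, 67.2%, 74.1% and 76.7% in the control libraries LYT004, LYT005, LYT015 and LYT017. LYT013 had 79.8% and LYT014 66.0%. With the median length of the coding transcripts the Ltbp4 share was lower, at 52.7%, 47.1% and 54.5% in these YAP-deleted libraries, 42.05%, 47.5%, 54.9% and 58.5% in these control libraries, 59.6% in LYT013 and 45.3% in LYT014, and Ltbp3 came next in each. With the longest transcript, Ltbp2 made up 4.53%, 6.97% and 2.53% in the same YAP-deleted libraries, against 15.3%, 11.7%, 3.91% and 2.22% in the control libraries. The shares of the groups overlapped for both genes, and the Ltbp2 share was 1.07% in LYT013 and 6.78% in LYT014.

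**Figure D2:**
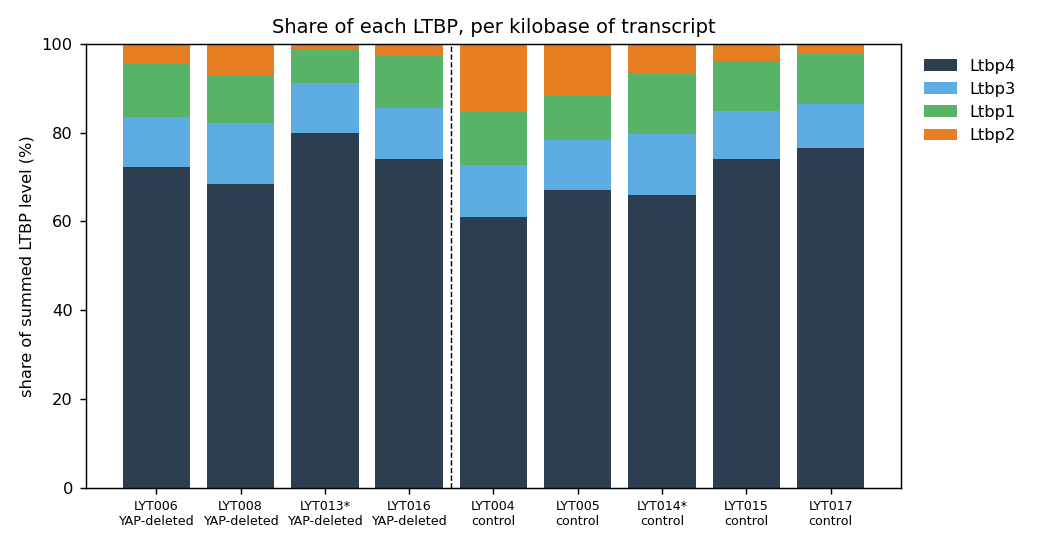
Share of each of the 4 LTBPs in their summed level per kilobase of the longest transcript (y axis, percent), in each library, YAP-deleted left and control right of the dashed line. Asterisks mark LYT013 and LYT014. Ltbp4 fills between 61.1% and 79.8% of every bar, and the Ltbp2 share varies from 1.07% in LYT013 to 15.3% in LYT004.

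The study compared stellate cells with and without Yap1, the coactivator restrained by the Hippo pathway. None of these 7 genes passed an adjusted p of 0.05 in either comparison by limma, a linear model fitted over all genes. With 9 libraries, 0% of 17203 genes passed, and with 7 libraries 0.0672% of 16372 did (3 higher and 8 lower). Yap1 was among the 8, and its own level had decided which libraries were set apart. In 9 libraries 1242 genes, and by limma voom 1349, had an unadjusted p under 0.05. At that unadjusted threshold 0 of the 7 genes passed in 9 libraries, where 7.22% of all genes did, and 1 (Ltbp3) in 7 libraries, where 6.41% did. Groups without overlap were seen for 0 of the 7 genes in 9 libraries, against 2.84% of all genes, and for 1 (Ltbp1) in 7 libraries, against 7.59%. Differences were positive for 4 of 7 genes in 9 libraries, with a median of 0.04, and for 5 of 7 in 7 libraries, with a median of 0.26, and the median of all genes tested was -0.0045 in both.

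**Figure D3:**
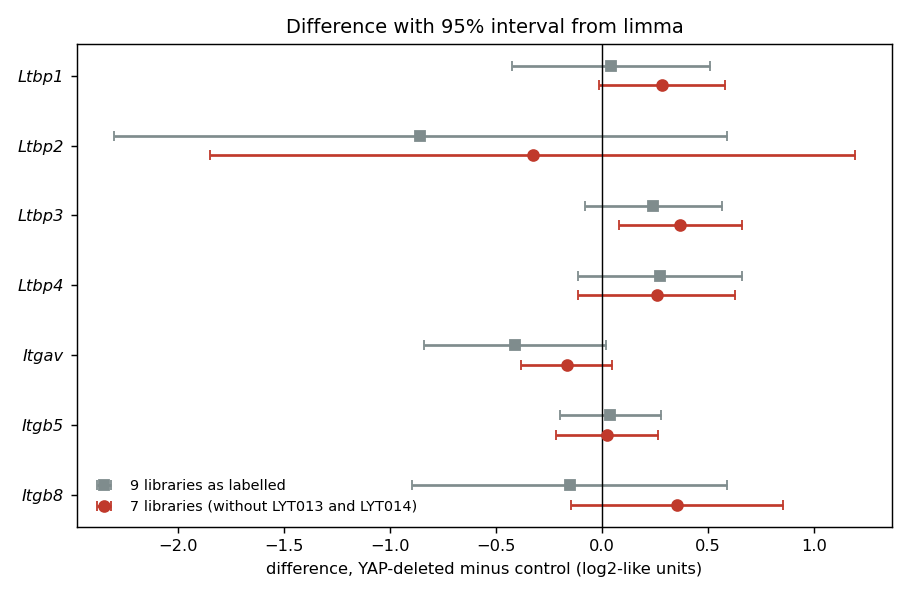
Difference, YAP-deleted minus control (x axis, log2-like units), of the 7 genes with its 95% interval from limma, for 9 libraries as labelled (grey squares) and the 7 libraries without LYT013 and LYT014 (red circles). All intervals except that of Ltbp3 in 7 libraries include 0, the narrowest is that of Itgav in 7 libraries, and the widest are those of Ltbp2.

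Ltbp1, the classical carrier of latent TGF-beta, lay higher in each of 3 YAP-deleted libraries than in each of 4 control libraries with LYT013 and LYT014 set apart, by a narrow margin that did not pass the test. Ltbp1 (chr17:75005568-75392512, plus strand) had 8436, 6240.5 and 6347 normalised counts in the YAP-deleted libraries LYT006, LYT008 and LYT016, against 6209, 5075, 5744 and 5793 in the control libraries LYT004, LYT005, LYT015 and LYT017. LYT006 stood above the rest, and the lowest YAP-deleted and highest control library were almost equal. The mean was 7008 ± 1238 in YAP-deleted libraries (SD, n = 3) and 5705 ± 469 in control libraries (SD, n = 4), a difference of 0.28 ± 0.13 (SE) on the log2-like scale of the deposited values, with a limma adjusted p = 0.783. The exact two-sided permutation p was 0.0571, the smallest that 3 against 4 libraries allow. With LYT013, which had 3440.5, and LYT014, which had 5505, included as labelled, the groups overlapped and the difference was 0.04 ± 0.21 (limma adjusted p = 0.956).

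Ltbp3, which carries latent TGF-beta chiefly in bone and other skeletal tissue, had the difference with the smallest unadjusted p of the 7 genes in 7 libraries. As labelled, with LYT013 and LYT014 included, that was Itgav (limma over all genes, unadjusted p = 0.0600, and 0.130 for Ltbp3). Ltbp3 (chr19:5740904-5758532, plus strand) had 6926, 6714 and 5179 normalised counts in the YAP-deleted libraries LYT006, LYT008 and LYT016, against 5248, 5000.4, 4759 and 4259 in the control libraries LYT004, LYT005, LYT015 and LYT017. LYT006 and LYT008 lay above every control library, and LYT016 lay just below the highest of them. The difference was 0.37 ± 0.13 (limma, unadjusted p = 0.0183, adjusted p = 0.675), with an exact two-sided permutation p = 0.114. As labelled, with 4363 in LYT013 and 4833 in LYT014, it was 0.24 ± 0.15 (limma adjusted p = 0.652).

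Ltbp4 (chr7:27305136-27337692, minus strand) had 41430, 31521 and 31706 normalised counts in the YAP-deleted libraries LYT006, LYT008 and LYT016, against 25815, 27983, 30728 and 31529 in the control libraries LYT004, LYT005, LYT015 and LYT017. LYT006 was the highest library, and LYT008 and LYT016 lay close to the 2 highest controls, so the groups overlapped. The difference was 0.26 ± 0.16 without LYT013 (28776) and LYT014 (21780), with a limma adjusted p = 0.836, and 0.27 ± 0.18 with them (limma adjusted p = 0.653). All 4 libraries labelled YAP-deleted lay above the control median, and the exact two-sided permutation p over 126 regroupings was 0.0952.

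Ltbp2 was the most variable of the 7 genes, and its variation ran across both groups. Ltbp2 (chr12:84783212-84876532, minus strand) had 3267, 4036 and 1359 normalised counts in the YAP-deleted libraries LYT006, LYT008 and LYT016, against 8145, 6118, 2036 and 1150 in the control libraries LYT004, LYT005, LYT015 and LYT017. LYT013 had the lowest value of all, 483, and LYT014 had 2814. The control libraries LYT004 and LYT005 were the highest, and the control library LYT017 lay below all 3 of these YAP-deleted libraries. The difference was -0.33 ± 0.67 in 7 libraries (limma adjusted p = 0.958) and -0.86 ± 0.66 in 9 (limma adjusted p = 0.679), with exact two-sided permutation p-values of 0.743 and 0.333. From lowest to highest library Ltbp2 spanned 16.8 times, or 7.08 times without LYT013, and the SD of its deposited values over the 9 libraries lay at the 98.9th percentile of 10175 genes with a mean of at least 100 normalised counts.

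Other transcripts were high in the same libraries as Ltbp2. Col1a1, the main fibrillar collagen gene of activated stellate cells, had 43449, 89565 and 21307 normalised counts in YAP-deleted LYT006, LYT008 and LYT016, against 168118, 159395, 33002 and 23643 in control LYT004, LYT005, LYT015 and LYT017. The 24 cell cycle genes summed to 3268, 26574 and 2944 in the same YAP-deleted libraries, against 28535, 38887, 3192 and 2917 in the control libraries. They were high in LYT004, LYT005 and LYT008, the 3 libraries with the most Ltbp2, but not in LYT006 (3268), which came next for Ltbp2. LYT013 and LYT014 had 24299 and 50001 for Col1a1, and 3928 and 10023 for the cell cycle sum. Markers of portal fibroblasts and mesothelial cells summed to 9633, 9501 and 5854 in YAP-deleted libraries and 10734, 9095, 5501 and 4321 in control libraries, mostly from Eln, Cd34, Gas6 and Wt1, while the mesothelial markers Msln, Upk3b and Gpm6a ran between 0 and 34.9. Of these 10 markers, 5 had a mean under 100 normalised counts. With the mean of the cell cycle genes as a covariate, the Ltbp2 difference was 0.02 ± 0.31 in 7 libraries and -0.28 ± 0.42 in 9. With the range of library codes as a covariate instead, it was -0.63 ± 0.23 in 7 libraries (limma, unadjusted p = 0.0229, adjusted p = 0.356) and -1.05 ± 0.30 in 9 (limma, unadjusted p = 0.00551, adjusted p = 0.422). In those fits 1897 of 16372 genes (7 libraries) and 1969 of 17203 genes (9 libraries) had an unadjusted limma p under 0.05. So did Ltbp3 in 7 libraries (limma, unadjusted p = 0.00360) and Itgav in 9 (limma, unadjusted p = 0.0429). The size of the Ltbp2 difference thus depended on the covariate. The part of other cell types in the Ltbp2 level was not tested. In bulk libraries, fewer cells of a type and less RNA per cell cannot be told apart.

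The library codes fall into the ranges 4 to 8 and 13 to 17. Within codes 4 to 8, where all 4 libraries followed their labels, both YAP-deleted libraries lay above both controls for Ltbp1 (a difference of 0.37), Ltbp3 (0.41) and Ltbp4 (0.43) and below both for Ltbp2 (-0.95) and Itgav (-0.32), while the groups overlapped for Itgb5 (0.02) and Itgb8 (0.32). With 2 libraries against 2, 41.5% of all 17203 genes tested did not overlap within these codes. Within codes 13 to 17 without LYT013 and LYT014, a single YAP-deleted library stood against 2 controls, and the differences were 0.14 for Ltbp1, 0.20 for Ltbp3, 0.03 for Ltbp4, -0.17 for Ltbp2, 0.05 for Itgav, -0.04 for Itgb5 and 0.35 for Itgb8. With LYT013 and LYT014 as labelled they were -0.28, 0.04, 0.13, -1.14, -0.53, 0.04 and -0.60 in the same order of genes, and the groups overlapped for all 7 genes. The share of all genes without overlap was not computed within codes 13 to 17, where the group sizes differ from those of codes 4 to 8. The overlaps of the ranges therefore cannot be compared. No test was run within a range, and with the range of codes as a covariate 0 of the 7 genes passed an adjusted p of 0.05 in limma.

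Itgav, the alpha v subunit common to the integrins alpha v beta 5 and alpha v beta 8, averaged 3010.5 ± 261 normalised counts in 3 YAP-deleted libraries and 3385 ± 237 in 4 control libraries (SD, without LYT013 and LYT014), a difference that did not pass the test. Itgav (chr2:83724397-83806916, plus strand) had 2808, 2919 and 3305 normalised counts in the YAP-deleted libraries LYT006, LYT008 and LYT016, against 3631, 3538, 3226 and 3143 in the control libraries LYT004, LYT005, LYT015 and LYT017. LYT016 lay above LYT015 and LYT017, so the groups overlapped. The difference was -0.17 ± 0.09 in 7 libraries (limma adjusted p = 0.812, exact two-sided permutation p = 0.171). As labelled it was -0.41 ± 0.20 (limma adjusted p = 0.649). The exact permutation test, two-sided and not adjusted for the 7 genes, gave p = 0.0476. That value rests on LYT013, which had 1493 normalised counts against 3371 in LYT014, and without LYT013 the difference was -0.17.

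Itgb5, the beta subunit that pairs with alpha v and also binds vitronectin, was the steadiest of the 7 genes. Itgb5 (chr16:33829665-33949338, plus strand) had 8205, 8664 and 7351 normalised counts in the YAP-deleted libraries LYT006, LYT008 and LYT016, against 8835, 7848, 7310 and 7801 in the control libraries LYT004, LYT005, LYT015 and LYT017. LYT013, at 8518, and LYT014, at 8018.5, fell inside the range of the others. The highest library exceeded the lowest 1.21 times, and its SD lay at the 4.29th percentile of the 10175 genes. The difference was 0.02 ± 0.11 in 7 libraries, with a 95% interval from -0.22 to 0.26 (limma adjusted p = 0.982), and 0.04 ± 0.11 in 9 (limma adjusted p = 0.913).

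Itgb8, the beta subunit whose pairing with alpha v activates TGF-beta without need of force on the cytoskeleton, was scarce and variable. Itgb8 (chr12:119158022-119238802, minus strand) had 393, 241 and 285 normalised counts in the YAP-deleted libraries LYT006, LYT008 and LYT016, against 341, 159, 220 and 204 in the control libraries LYT004, LYT005, LYT015 and LYT017. LYT013 was the lowest library with 77.2 and LYT014 the highest with 404. The groups overlapped, with LYT004 above LYT008 and LYT016. The difference was 0.35 ± 0.22 in 7 libraries (limma adjusted p = 0.834) and -0.15 ± 0.34 in 9 (limma adjusted p = 0.888), and without LYT013 alone it was 0.21, so its sign depended on LYT013. The 10 liver endothelial markers summed to 4937 in LYT013 and 4582 in LYT014, the libraries with the least and the most Itgb8. Clec4g made up much of these sums (3086 and 1849), and Egfl7 and Pecam1 were also higher in LYT013. Cdh5, Kdr (90.4 and 482), Stab1, Stab2, Lyve1, Tek and Erg were higher in LYT014. The mean log2-like value of the 10 was 7.87 in LYT013 and 8.55 in LYT014, the highest of all libraries. The part of endothelial RNA in the Itgb8 level was not tested.

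The library LYT013 differed from the others in a way that follows transcript length. In LYT013, the 1847 genes whose longest transcript is under 2 kb lay 0.64 above the mean of the other 8 libraries (median, log2-like scale), and the 1638 genes of 6 kb or more lay 0.63 below it (a median deviation of -0.63). In the other 8 libraries the same medians ran from -0.22 to -0.01 and from -0.08 to 0.16. Of the 7 genes, Itgb8 (8.40 kb), Itgav (7.05 kb), Ltbp2 (6.77 kb) and Ltbp1 (6.67 kb) deviated in LYT013 by -1.32, -1.08, -2.48 and -0.82, and Ltbp3 (5.73 kb) by -0.28. Ltbp4 (5.39 kb) deviated by -0.05, where the 2558 genes of 4 to 6 kb had a median of -0.28. The shorter Itgb5 (3.28 kb) deviated by 0.09. The low values of the 4 longest genes in LYT013 thus stood beside low values of long transcripts in general, and the part of length in them was not tested beyond removing a smooth length trend from every library. With that trend removed, the differences in 9 libraries were 0.21 for Ltbp1, -0.68 for Ltbp2, 0.37 for Ltbp3, 0.38 for Ltbp4, -0.23 for Itgav, 0.02 for Itgb5 and 0.08 for Itgb8. Ltbp3 (unadjusted p = 0.00800) and Ltbp4 (unadjusted p = 0.0334) then had an unadjusted limma p under 0.05, and both had an adjusted p = 0.662. In that fit 1294 of all 17203 genes tested had an unadjusted p under 0.05, and 0 passed the adjusted threshold. The removal of the trend was chosen after seeing the data. Cytosolic ribosomal protein transcripts, which are short, summed to 235730 in LYT013 and to at most 137500 (LYT006) elsewhere.

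**Figure D4:**
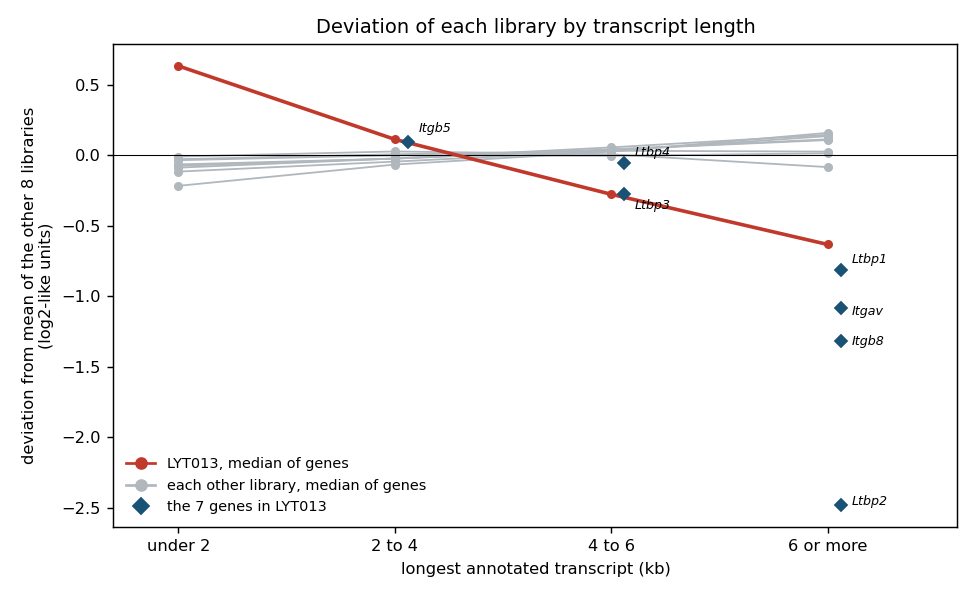
Median deviation of each library from the mean of the other 8 (y axis, log2-like units) for genes grouped by the longest annotated transcript (x axis, kb), with LYT013 as the red line and every other library in grey. Diamonds are the 7 genes in LYT013. LYT013 falls across the length groups to -0.63 at 6 kb or more, and the 4 diamonds in that group lie lower still, down to -2.48 for Ltbp2.

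The other subunits that alpha v integrins can use, and the further integrins that bind the latency-associated peptide, put Itgb5 and Itgb8 in proportion. Itgb1, the most widely shared beta subunit, averaged 8133 normalised counts per kilobase over 9 libraries and Itgb3 1018, whereas Itgb6, the epithelial activator of TGF-beta, averaged 0.35. Itgb5 made up 25.1%, 23.1% and 18.3% of the summed level per kilobase of Itgb1, Itgb3, Itgb5, Itgb6 and Itgb8 in YAP-deleted LYT006, LYT008 and LYT016, against 24.1%, 19.2%, 18.6% and 17.7% in control LYT004, LYT005, LYT015 and LYT017. Itgb8 made up 0.470%, 0.251% and 0.278% in those YAP-deleted libraries, against 0.363%, 0.153%, 0.218% and 0.181% in the control libraries. LYT013 and LYT014 had 23.3% and 22.2% for Itgb5, and 0.0826% and 0.437% for Itgb8. These shares used the longest transcript and depend on that choice, since for Itgb1 it is 3815 bases and the median coding transcript 2263. Per kilobase, Itgb5 exceeded Itgb8 50.9 times in LYT014, the lowest ratio, and 283 times in LYT013, the highest. The alpha 8 subunit Itga8, a partner of beta 1, also binds the latency-associated peptide. With the longest transcript as length it averaged 2054 per kilobase, above Itgav at 432. That order depends on the length used, since the median coding transcript is 3151.5 bases for Itga8 and 688 for Itgav. With that length Itgav had 4431 per kilobase.

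None of the 7 integrin partners passed the test (limma, 7 libraries). Itgb1 differed by -0.22 ± 0.16, Itga8 by 0.20 ± 0.21, Itgb3 by 0.17 ± 0.27 and Itga2b, the platelet alpha IIb subunit, by 0.17 ± 0.26. Itga5, the fibronectin receptor subunit, differed by 0.07 ± 0.21, Itgb6 by 0.07 ± 0.10 and Itga9 by -0.04 ± 0.13. Of the 7, 5 were positive and 2 negative, with a median of 0.07, and in 9 libraries 3 were positive and 4 negative, with a median of -0.06.

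Of the 8 ligand and receptor genes, 0 passed the test, with 4 positive and 4 negative in 7 libraries (median -0.02) and 2 positive and 6 negative in 9 (median -0.14). Tgfb2 had 376, 480 and 367.9 normalised counts in YAP-deleted LYT006, LYT008 and LYT016, against 624, 492, 648 and 667.5 in control LYT004, LYT005, LYT015 and LYT017. These groups did not overlap, which held for 7.59% of all genes tested in 7 libraries. The difference was -0.52 ± 0.13 (limma adjusted p = 0.524). In 9 libraries it was -0.19 ± 0.21, with 695 in LYT013 and 342 in LYT014. Tgfb1, the isoform most studied in liver fibrosis, differed by 0.24 ± 0.12 in 7 libraries and Tgfb3 by -0.19 ± 0.23. Eng, the co-receptor endoglin, had 30106, 27659 and 27151 in the YAP-deleted libraries, against 21344, 23235, 23350 and 23461 in the control libraries. Those groups did not overlap either, with or without LYT013 (24103) and LYT014 (21808). In 9 libraries 2.84% of all genes tested did not overlap. The Eng difference was 0.31 ± 0.12 in 7 libraries and 0.26 ± 0.13 in 9 (limma adjusted p = 0.740 and 0.649). Acvrl1, the type I receptor that works with endoglin, was scarce at a mean of 45.9. It differed by -0.48 ± 0.16 in 7 libraries, where its groups did not overlap, and by -0.28 ± 0.18 in 9, where they did. Tgfbr1, Tgfbr2 and Tgfbr3 differed by -0.08 ± 0.13, 0.04 ± 0.11 and 0.08 ± 0.15 in 7 libraries.

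Of the 17 further latency and activation genes, 0 passed the test, with 8 positive and 9 negative in 7 libraries and 6 positive and 11 negative in 9. Lrrc32, which encodes GARP, a membrane tether that holds latent TGF-beta in place of an LTBP, averaged 2491 normalised counts per kilobase, and its relative Nrros, the tether of macrophages and microglia, 10.1. The 4 with the smallest p were Htra1, a secreted serine protease that cleaves LTBP1, at -0.79 ± 0.22 (limma adjusted p = 0.610), the fibrillin Fbn1, to which LTBPs attach, at -0.40 ± 0.17 (0.778), the gelatinase Mmp2 at 0.43 ± 0.21 (0.788) and fibronectin, Fn1, at -0.41 ± 0.22 (0.803). The groups of Htra1 and Fn1 did not overlap in 7 libraries, which held for 7.59% of all genes tested. In 9 libraries the groups of both overlapped. Htra1 then differed by -0.34 ± 0.32, with 1031 in LYT013 and 396 in LYT014, and Fn1 by -0.47 ± 0.23. Of the 12 elastic fibre genes listed, 11 were in the table and tested and 0 passed, with 8 positive and 3 negative in 7 libraries. Adamtsl3 (0.36 ± 0.13), Adamtsl2, which binds LTBP1 (0.49 ± 0.31), Fbln1 (0.43 ± 0.32) and Mfap2 (0.39 ± 0.37) had the smallest p there.

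Of the 14 genes listed as responding to TGF-beta, 0 passed the test, with 7 positive and 7 negative in 7 libraries (median 0.0041) and 6 positive and 8 negative in 9 (median -0.02). Tagln, a smooth muscle protein of myofibroblasts, had 2978, 5419 and 3560 normalised counts in YAP-deleted LYT006, LYT008 and LYT016, against 8517, 11191, 5483 and 10608 in the control libraries LYT004, LYT005, LYT015 and LYT017. The groups did not overlap in these 7 libraries, which held for 7.59% of all genes tested. The difference was -1.15 ± 0.28 (limma adjusted p = 0.512). In 9 libraries it was -0.47 ± 0.48, with 20124 in LYT013, the highest of all, and 6298 in LYT014. Acta2, the smooth muscle actin, differed by -1.49 ± 0.71 in 7 libraries and by -0.98 ± 0.64 in 9. In 7 libraries Bambi, a decoy receptor for the family, differed by 0.30 ± 0.14 and Pmepa1, an inhibitor of SMAD signalling, by 0.12 ± 0.09. For Bambi the groups did not overlap in 7 libraries or in 9, where 2.84% of all genes tested did not.

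For each of the 7 genes, the 2 genes most alike over the 9 libraries were those with the highest Pearson correlation of deposited values among 10168 genes, which share the libraries and their depth. They were picked as the highest and are a description. For Ltbp2 they were Dpysl3 (r = 0.984, Spearman rho = 0.983) and Tmem64 (0.979, 0.983), and r without LYT013 was 0.972 and 0.979. For Ltbp1 they were Maf (0.978, 0.850) and Rab43 (0.974, 0.883), for Ltbp3 Zmiz2 (0.955, 0.900) and Zfp316 (0.951, 0.833), and for Ltbp4 Atp13a2 (0.921, 0.867) and Six5 (0.881, 0.750). Itgav was most like Ythdc2 (0.996, 0.983) and Mast4 (0.994, 0.967), Itgb8 like Zfp516 (0.977, 0.983) and Acsl4 (0.973, 0.967). Itgb5 was most like Tead2 (0.949, 0.933), a TEAD family transcription factor gene, and Ctnnbip1 (0.943, 0.983), an inhibitor of beta-catenin. Without LYT013, r lay between 0.935 (Mast4) and 0.980 (Ythdc2) for all 14.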

How the data were processed

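The authors deposited variance-stabilised, log2-like values, 1 per gene name and library, with a floor of 4.96. How they were transformed is not stated in the sources used here. The submitters' processing notes list kallisto 0.44.0, sleuth and bcl2fastq 2.20 as tools, and GRCh38, GRCm38 and mm10 as builds, without giving their roles. Per the labels' protocols, poly-A and ribosomal depletion preparations were made, and which library received which is not stated. The column for LYT013 was headed LYT013.1, for a reason not stated.

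Inverting the transformation gave whole counts to within 0.1 for 100.0% of values above the floor in every library. Normalised counts are these counts divided by size factors. Because no count table was used, a count model was not the main test.

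Genes above the floor in at least 4 libraries were tested with limma 3.58.1 in R 4.3.3 (group only, mean-variance trend, two-sided, Benjamini-Hochberg over all genes tested, threshold 0.05). For each of the 7 genes an exact permutation test, two-sided, covered all 126 (9 libraries) or 35 (7 libraries) regroupings, whose smallest p is 0.0159 or 0.0571, unadjusted. On the log2-like scale, changes of scarce genes such as Itgb8 come out too small. The procedure was also run on simulated counts. Those held no pattern by transcript length, library code or cell cycle, so that run did not test how such patterns act. Transcript lengths and positions came from GENCODE M21 on GRCm38, and promoters from RefSeq on GRCm38.p6.

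The 7 genes and the lists were chosen with earlier results of these data known, including that LYT013 and LYT014 go against their labels. No library was moved to another group. Named genes were the 7, Yap1, all ligands, receptors and integrin partners, the 4 with the smallest p in 7 libraries of each other pathway list, and the 2 most correlated genes of each. Cell markers, Col1a1 and the cell cycle genes are given only where they move with a result. Alternatives covered filters, scaling, transformation, moderation, library weights, covariates, transcript length and the omission of each library.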

Additional observations from a re-analysis of the deposited data

How the results depend on the processing

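None of the 7 genes passed the threshold under any of the 22 alternatives for 9 libraries or the 19 for 7. Ltbp3, Ltbp4 and Itgav kept their sign under all of them, in both comparisons (Ltbp3 0.29 to 0.50, Ltbp4 0.13 to 0.32 and Itgav -0.23 to -0.11 in 7 libraries). In 9 libraries Itgb5 was -0.043 under quantile normalisation, and Itgb8 was 0.19 with library weights, 0.076 with the transcript length trend removed (chosen after seeing the data) and 0.35 without LYT013 and LYT014. Without each library in turn, Ltbp1 ran from -0.13 (without LYT006) to 0.29 and Itgb8 from -0.38 to 0.21 (without LYT013). In 7 libraries Itgb5 was -0.0050 under quantile normalisation and -0.0047 with the range of library codes as covariate, and Ltbp2 was 0.13 with library weights and 0.017 with the cell cycle covariate. Without each library in turn, Ltbp1 ran from 0.14 (limma adjusted p = 0.999) to 0.36, Ltbp4 from 0.13 to 0.32 and Itgb8 from 0.19 to 0.52, each lowest without LYT006, while Itgb5 ran from -0.030 (without LYT008) to 0.088 and Ltbp2 from -0.82 to 0.13 (without LYT016), and Ltbp2 was 0.10 without LYT004.

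The number of genes called was 0 in 9 libraries under every alternative except the omission of LYT013 and LYT014, which gave 11, Yap1 among them. In 7 libraries it was 25 with library codes and 36 with the cell cycle covariate (7 and 11 higher, 18 and 25 lower), and 2 (without LYT006) to 10 without each library in turn. Otherwise causes were not tested. Before centring, the median of all genes differed between the groups by -0.0203 in 9 libraries and -0.0069 in 7. No paired analysis was possible because the labels give each library its own code and no number shared between the groups. With 3 against 4 libraries of 14052502 to 22917865 counts, differences as small as those seen could not be told from the spread between libraries.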
